A study of Mus musculus with 4 samples.

Results

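9 genes of the Hox transcription factor network were followed in blood stem and progenitor cells: Hoxa5, Hoxa7, Hoxa9, Hoxa10, Hoxb4 and Hoxb5, and the genes of their partner proteins Meis1, Pbx2 and Pbx3. They were taken by name (HOXA5, HOXA7, HOXA9, HOXA10, HOXB4, HOXB5, MEIS1, PBX2 and PBX3 as the table spells them), and each of the 9 had a single row among the 30854 gene rows. The cells were LSK cells, sorted from mouse marrow as free of lineage markers and carrying both Sca-1 and Kit. In knockout mice the B-myb gene, now named Mybl2, was floxed and the mice carried Mx-Cre, a recombinase driven by an interferon-inducible promoter that is also active outside the blood. The control mice are labelled only as control. All mice were of strain C57BL6/J, were 12 to 16 weeks old and had received pIpC, the double-stranded RNA mimic that induces Mx-Cre, 1 week before harvest. RNA was hybridised to Illumina bead arrays, 1 array per pool of 3 to 5 mice. There were 2 knockout pools, replicates 1 and 3, and 2 control pools, replicates 1 and 2, so every comparison below rests on 2 arrays per genotype. Errors marked SE and the confidence intervals come from limma, which draws the variance of each gene towards that of all genes tested. They are therefore not the spread of that gene's own arrays alone. The question was which transcripts differ in these cells when B-Myb is lost.

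Hox genes encode homeodomain transcription factors and lie in clusters in which the number of a gene gives its paralog group. Hox proteins bind DNA together with homeodomain proteins of the TALE class, which include Pbx and Meis. In bone marrow, Hoxa and Hoxb genes and Meis1 are best known for high activity in stem and early progenitor cells, for decline as cells mature, and for the ability of Hoxa9 and Meis1 together to transform myeloid progenitors.

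Signal differed between the arrays before normalization. Above background means a deposited detection p under 0.05 on that array, which held for 10761 and 8797 gene rows on knockout replicates 1 and 3, against 12297 and 13439 on control replicates 1 and 2. Over the genes tested, the median of background-corrected log2 signal was 6.01 and 5.70 on the knockout arrays and 6.87 and 6.52 on the control arrays, and quantile normalization then aligned the arrays. Mybl2 had deposited intensities of 162.2 and 146.5 on the knockout arrays, against 292.4 and 168.2 on the control arrays. Its normalized log2 change of −0.18 ± 0.28 (SE) did not pass the test (limma, adjusted p = 0.776), and where its probe lies relative to the floxed part is unknown, so it does not check the genotypes. Of the sorting markers, Ly6a, which encodes Sca-1, was above background on all 4 arrays, and Kit, above background on 3 of them, was at 527.5 and 408.4 in knockout cells against 1339.9 and 1071.2 in control cells.

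Meis1 and Hoxa5 had lower normalized values on both knockout arrays than on either control array. Hoxb5 was lower on average, but its values overlapped between the genotypes. Hoxa7 was slightly higher after normalization, while its deposited intensities overlapped, and Hoxa9, Hoxb4 and Pbx2 differed little. Knockout cells had 0.40 times the Meis1 signal and 0.50 times the Hoxa5 signal of control cells after normalization. Hoxa10 and Pbx3 were not above background on any array. No member passed the test over all genes (0 of 7 tested, limma, adjusted p under 0.05). The same test called 0 of 11538 genes (0%), with 1769 genes (15.3%) at an unadjusted p under 0.05. At that unadjusted level 2 of the 7 tested members, Meis1 and Hoxa5, were lower in the knockout, where 8.77% of all genes tested were. The median log2 change of the 7 tested members was −0.12, against −0.04 for all genes tested. Because the RNA came from a mixed sorted fraction, fewer cells of a kind and less RNA per cell cannot be told apart.

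**Figure D1:**
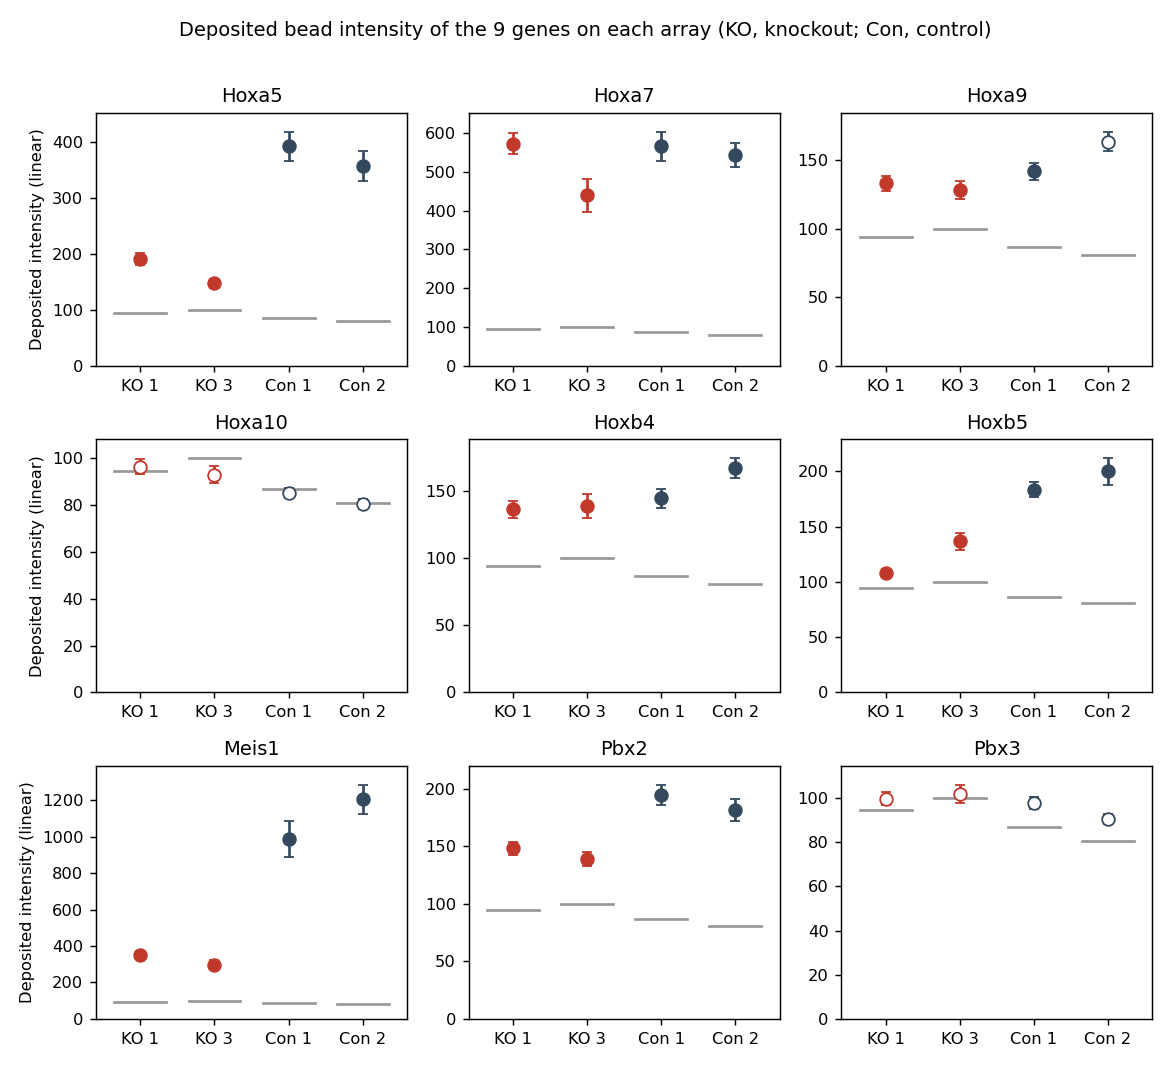
Deposited linear intensity of the 9 genes on knockout (KO, red) and control (Con, dark blue) arrays, with bars of 1 bead standard error; filled points are above background, open points are not, and grey lines mark the median of the negative control probes on each array. Meis1 stood at 352.8 and 298.2 on the knockout arrays and at 986.2 and 1206.1 on the control arrays, while Hoxa10 and Pbx3 lay close to the negative controls.

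Before any normalization, 6 of the 7 tested members had both knockout intensities below both control intensities. That pattern held for 41.1% of all genes tested (and the opposite for 12.3%), so it is no result about the members. After normalization it held for 2 of the 7, Meis1 and Hoxa5, against 28.1% of all genes. Both also differed at least 2-fold, which together with no overlap held for 2.32% of all genes. Hoxa7 was the single tested member with both knockout values above both control values, against 22.0% of all genes, and its difference was under 2-fold, where 1.30% of all genes were at least 2-fold higher without overlap. On every array the intensity of each of the 7 tested members exceeded that of all 936 negative control probes.

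Hoxb4, a paralog group 4 gene whose overexpression expands stem cells, had intensities of 136.7 and 139.3 on the knockout arrays, against 144.7 and 167.2 on the control arrays. On the normalized log2 scale it was at 6.19 and 6.42 in the knockout and at 5.72 and 6.50 in the control. Both knockout values lay between the control values, so the groups overlapped. The log2 change was 0.20 ± 0.31 (SE; limma, adjusted p = 0.785), and its 95% confidence interval from −0.57 to 0.96 does not exclude a change of nearly 2-fold upward.

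Hoxa5 and Hoxb5 belong to paralog group 5, and Hoxb5 is known in mouse as a marker of long-term stem cells. Hoxa5 had intensities of 191.3 and 148.2 on the knockout arrays, against 393.2 and 357.6 on the control arrays. Its normalized log2 values were 7.14 and 6.67 in the knockout and 7.71 and 8.13 in the control. Both knockout values were the low ones, without overlap. Hoxa5 differed by −1.01 ± 0.27 (SE) on the log2 scale, with a 95% confidence interval from −1.67 to −0.35 (limma, unadjusted p = 0.00998, adjusted p = 0.246). It was −0.77 without knockout replicate 3 and −0.70 without background correction. Hoxb5 had intensities of 108.1 and 136.7 on the knockout arrays, against 183.4 and 199.8 on the control arrays. Knockout replicate 1 was the lowest of the 4 and lay close to the negative controls of its array, whose 95th percentile was 101.5. Normalized log2 values of Hoxb5 were 5.13 and 6.34 in the knockout and 6.28 and 6.93 in the control, so knockout replicate 3 overlapped the control values. Its log2 change of −0.87 ± 0.45 (SE; limma, adjusted p = 0.406) was −0.26 without knockout replicate 1 and −1.56 without knockout replicate 3, so knockout replicate 1 carried most of it. The bead standard errors of the intensity were 3.1 and 7.5 on knockout replicates 1 and 3, over 44 and 33 beads, which covers the error within an array only.

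Hoxa7, next but 1 to Hoxa5 in the cluster, had intensities of 572.2 and 439.3 on the knockout arrays and 565.9 and 543.1 on the control arrays. Its normalized log2 values were 9.18 and 9.13 in the knockout and 8.34 and 8.90 in the control. The knockout values lay above both control values after normalization, although the deposited intensities overlapped. The log2 change was 0.53 ± 0.25 (SE; limma, adjusted p = 0.377). Leaving out control replicate 1 gave 0.26, and the sign turned, to −0.30, under median scaling, where the median of all genes was −0.70. The RefSeq promoters of both genes, from 250 bases before to 50 bases after the start in build GRCm38.p6, are shown because these near neighbours differed in direction after normalization. Hoxa5 lies at chr6:52204538-52204837 on the minus strand and Hoxa7 at chr6:52218524-52218823 on the minus strand. Capitals mark every match to AACNG on either strand, letters that cover the core bound by Myb family proteins.
Hoxa5: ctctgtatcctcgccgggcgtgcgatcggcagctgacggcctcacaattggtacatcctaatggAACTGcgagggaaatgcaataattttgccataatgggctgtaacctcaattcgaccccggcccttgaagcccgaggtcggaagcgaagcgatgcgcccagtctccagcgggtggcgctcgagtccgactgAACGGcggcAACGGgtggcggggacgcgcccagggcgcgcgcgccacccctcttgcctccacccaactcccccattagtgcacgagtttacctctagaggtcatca
Hoxa7: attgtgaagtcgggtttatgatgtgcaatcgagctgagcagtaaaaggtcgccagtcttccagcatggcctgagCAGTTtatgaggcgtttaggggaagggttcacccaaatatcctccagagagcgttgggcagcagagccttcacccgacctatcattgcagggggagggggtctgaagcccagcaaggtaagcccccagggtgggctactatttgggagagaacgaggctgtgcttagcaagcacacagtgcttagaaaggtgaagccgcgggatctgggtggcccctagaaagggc
The Hoxa5 promoter held 3 such matches and the Hoxa7 promoter 1. The Hoxa9 promoter held 4, with a log2 change of 0.02, and the Meis1 promoter 1, with a log2 change of −1.32. No relation between the number of matches and the change was tested.

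Hoxa9 and Hoxa10, the posterior members of the Hoxa cluster in this set, are both tied to myeloid leukaemia when overexpressed. Hoxa9 had intensities of 133.3 and 128.3 on the knockout arrays, against 142.1 and 163.8 on the control arrays. The detection p was 0.0211 and 2e-05 in the knockout and 0.0482 and 0.0659 in the control, although the control intensities were the higher ones, and how the deposited detection p was computed is not given in the sources used here. Normalized log2 values were 6.10 and 6.06 in the knockout and 5.68 and 6.45 in the control. The knockout values lay between the control values, and the log2 change was 0.02 ± 0.30 (SE; limma, adjusted p = 0.982), with a 95% confidence interval from −0.72 to 0.76. Its sign depended on the control array kept, with −0.36 without control replicate 1 and 0.41 without control replicate 2. Hoxa10 had intensities of 96.3 and 92.9 on the knockout arrays and 85.1 and 80.2 on the control arrays. Between 12.6% and 67.8% of the negative control probes of the same array were dimmer, so its transcript was not detectable with this probe set and no fold is given.

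Meis1, a TALE cofactor needed for the maintenance of stem cells and for megakaryocyte formation in mouse, had the largest difference of the 7 tested members. Its intensities were 352.8 and 298.2 on the knockout arrays, against 986.2 and 1206.1 on the control arrays, with bead standard errors of 22.4, 23.8, 100.5 and 79.0 over 47, 43, 46 and 50 beads in the same order. Normalized log2 values were 8.36 and 8.43 in the knockout and 9.24 and 10.20 in the control. The knockout arrays were nearly alike and both were lower than either control, while the controls differed from each other by more. Meis1 differed by −1.32 ± 0.34 (SE) on the log2 scale, with a 95% confidence interval from −2.17 to −0.47 (limma, unadjusted p = 0.00922, adjusted p = 0.245). An exact permutation test over the 6 assignments of the arrays gave a two-sided p of 0.333, the smallest that 2 arrays against 2 can give. Only 0.997% of the genes tested had a lower change. Leaving out 1 control array moved it to −0.86 (replicate 2) or −1.83 (replicate 1), and omitting background correction gave −1.16. Meis1 had been described as lower in an earlier reading of these data, so its size here is not independent evidence. The RefSeq promoter of Meis1, at chr11:19018920-19019219 on the minus strand of GRCm38.p6, is shown with the same marking.
Meis1: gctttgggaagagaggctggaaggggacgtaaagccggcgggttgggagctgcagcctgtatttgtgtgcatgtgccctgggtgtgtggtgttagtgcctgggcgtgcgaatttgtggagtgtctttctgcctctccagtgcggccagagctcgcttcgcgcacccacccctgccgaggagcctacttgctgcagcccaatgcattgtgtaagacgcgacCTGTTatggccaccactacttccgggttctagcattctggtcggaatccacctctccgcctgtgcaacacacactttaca
It held 1 match to AACNG.

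Pbx2 and Pbx3 encode broadly expressed TALE partners of Hox proteins. Pbx2 had intensities of 148.2 and 139.2 on the knockout arrays, against 194.9 and 181.8 on the control arrays. Its normalized log2 values were 6.45 and 6.42 in the knockout and 6.42 and 6.71 in the control, which overlapped. The log2 change was −0.12 ± 0.21 (SE; limma, adjusted p = 0.801), with a 95% confidence interval from −0.65 to 0.40, and the detection p on knockout replicate 3 was 0.0499. Pbx3 had intensities of 99.6 and 102 on the knockout arrays and 97.7 and 90.6 on the control arrays. Its detection p lay between 0.0561 and 0.358 on the 4 arrays, so it failed the detection filter of the fit reported here.

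**Figure D2:**
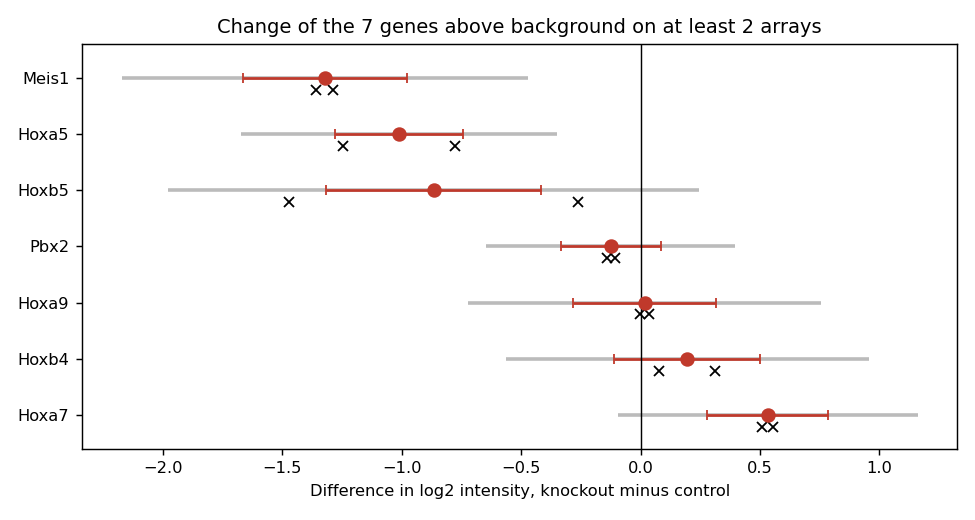
Change in normalized log2 intensity, knockout minus control, of the 7 tested genes (red points) with 1 standard error (red bars) and the 95% confidence interval (grey bars) from the limma fit; black crosses give each knockout array relative to the control mean. The intervals of Meis1 and Hoxa5 lie below 0 before adjustment for multiple tests, and the crosses of Hoxb5 lie far apart.

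The letters AACNG were present in at least 1 promoter of each of the 7 member genes with an entry, Hoxa5, Hoxa7, Hoxa9, Hoxa10, Hoxb4, Meis1 and Pbx2. Because 80.3% of the 32851 RefSeq promoters of the same length held them, this count is near the background. All motifs were searched on both strands. The element TTTGAA, known from cell cycle genes bound by the complexes that B-Myb joins, was in none of the 7, against 17.9% of all promoters. TGACAG, a core bound by Meis proteins, was in none against 19.2%, and TGATNNAT, a core of Pbx and Hox pairs, in none against 8.85%. No 2 of these motifs overlapped in the sequences shown, since AACNG alone was found. A match describes letters and not a bound site.

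The members did not differ alike within the arrays. These within-array differences were chosen after the values were seen and are given as descriptions without a test, and they are compared across arrays only. On the normalized log2 scale, Hoxa5 minus Hoxa7 was −2.04 and −2.46 on the knockout arrays, against −0.63 and −0.77 on the control arrays. The log2 difference of Hoxa5 to its neighbour was thus 1.54 lower in the knockout, and from the deposited intensities without any correction it was −1.58 and −1.57 against −0.53 and −0.60. Hoxb5 minus Hoxb4 was −1.06 and −0.08 on the knockout arrays and 0.56 and 0.43 on the control arrays. Meis1 minus Pbx2 was 1.91 and 2.01 on the knockout arrays and 2.83 and 3.49 on the control arrays, and Meis1 minus Hoxa9 was 2.26 and 2.37 against 3.56 and 3.75. Each pair was set with the gene of the lower change first, and the pairs with Meis1 share its values. That the knockout arrays lay below the control arrays without overlap in all 4 pairs therefore reflects the choice. No share over other gene pairs was computed. The same held without background correction, with cyclic loess and in the deposited intensities, which come from the same arrays. Multiplying all values of an array by a constant leaves a within-array log2 difference unchanged. Background left in the signal and an added offset can change it. The part of array brightness in these differences was not tested.

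**Figure D3:**
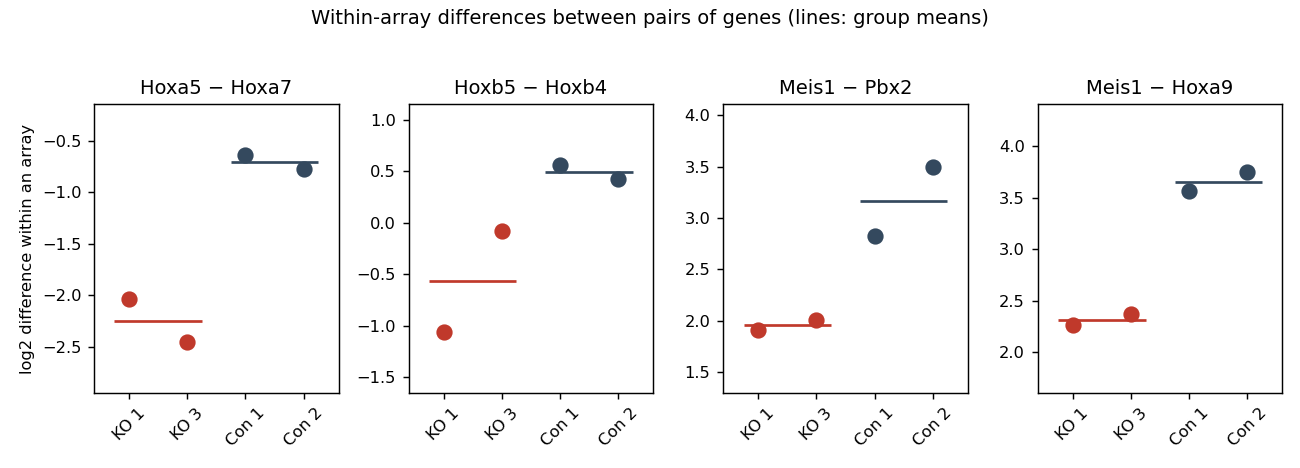
Difference between the normalized log2 values of 2 genes on the same array, for knockout (KO, red) and control (Con, dark blue) arrays, with lines at the group means; each panel spans the same range. The Hoxa5 minus Hoxa7 values are −2.04 and −2.46 in the knockout and −0.63 and −0.77 in the control.

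Most other Hox genes were not above background on these arrays. Of 33 further Hox rows, 19 were above background on none of the arrays, 8 on a single array and 6 on at least 2 arrays, and none of the 33 had an intensity above 142.2 on any array. In the Hoxc and Hoxd clusters 1 of 9 rows each was tested, Hoxc6 and Hoxd10. None of the 6 passed the test (limma, adjusted p under 0.05). Of the 4 that were above background in both genotypes, 2 were lower and 2 higher, with 53.6% of all genes lower, and their log2 changes ran from −0.45 to 0.28. Hoxb2 was the 1 of these above background on all 4 arrays, with intensities of 129 and 126.6 in the knockout and 142.2 and 132.3 in the control (log2 change 0.20 ± 0.20, SE). Hoxa2 and Hoxa4, anterior genes of the cluster that holds Hoxa5, were at −0.45 ± 0.21 and −0.38 ± 0.24 (SE), each above background on both control arrays and 1 knockout array. Hoxd10 was at 0.28 ± 0.22. Hoxa13 and Hoxc6 passed the filter through the control arrays alone. The bound described under the processing put them 1.12-fold and 1.20-fold lower in the knockout. Their confidence intervals ran from −0.69 to 0.26 and from −0.78 to 0.27 on the log2 scale. The deposited intensities of both genes overlapped between the genotypes, so their direction was not established. Within the Hoxa cluster the normalized values of Hoxa2, Hoxa4 and Hoxa5 were lower in the knockout on average, and those of Hoxa7 and Hoxa9 were not. The deposited intensities of Hoxa2 (101.5 and 105.5 in the knockout, 106.8 and 102.8 in the control) overlapped. Those of Hoxa4 (103.7 and 103.1 against 105.9 and 101.6) overlapped too. None of these differences passed the test, and no order along the cluster was tested. Within the Hoxb cluster Hoxb5 was lower while Hoxb2 and Hoxb4 were at 0.20 each.

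**Figure D4:**
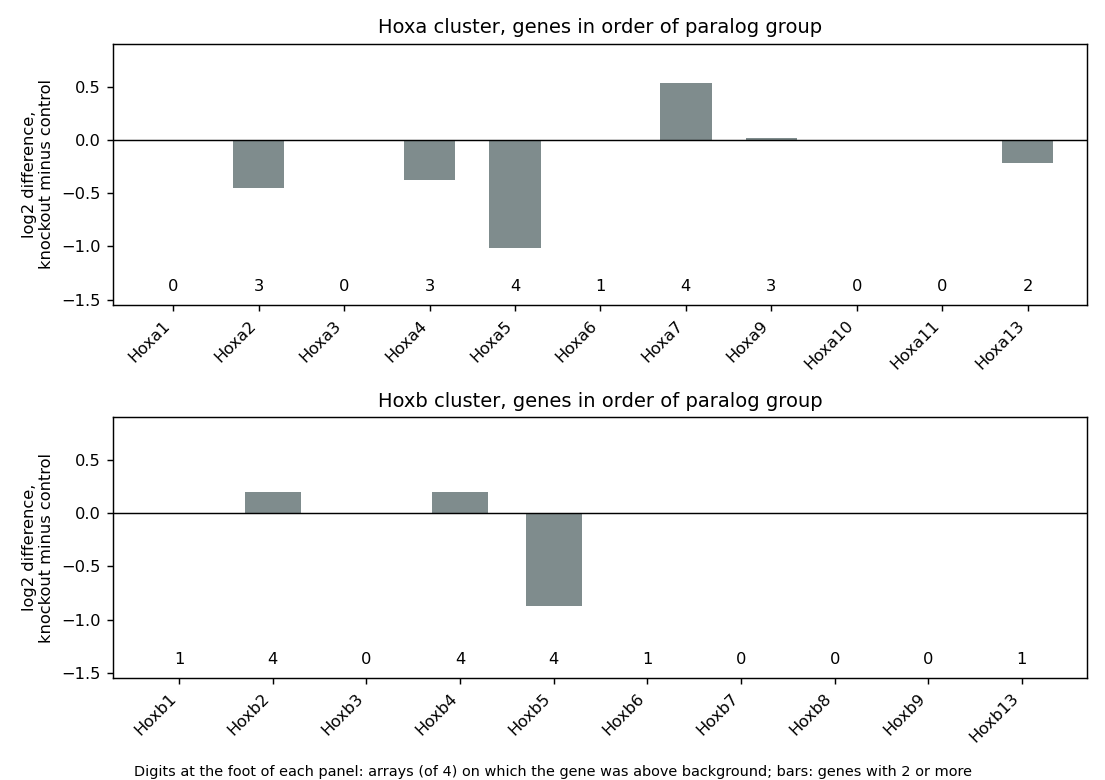
Log2 difference, knockout minus control, for the genes of the Hoxa (top) and Hoxb (bottom) clusters in order of paralog group, with the number of arrays above background at the foot; genes above background on fewer than 2 arrays have no bar, and Hoxa13 was above background on the control arrays alone. Hoxa5 (−1.01) and Hoxb5 (−0.87) have the longest bars, and Hoxa7 (0.53) points the other way.

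Other TALE factors that were tested were mostly lower in the knockout, by amounts that did not pass the test and depended on the processing. Of a list of 9 genes, further TALE factors and a Pbx-binding protein, 8 had a row and 5 were tested, and 0 passed the adjusted threshold in limma. Tgif2 passed the filter through the control arrays alone. Of the 4 others, 3 were lower, with 53.6% of all genes lower, and their median change was −0.54. At an unadjusted p under 0.05 (limma), 2 of them were lower and 1 higher, against 8.77% and 6.56% of all genes. The median of all 5 tested was −0.57. It was −0.17 without background correction, −0.25 with an offset of 50 and −0.33 with cyclic loess. Tgif1, a TALE repressor, was at −0.60 ± 0.24. Pknox1, which encodes the Meis-related partner Prep1, was at 0.74 ± 0.21 and ran against the rest of the list, with log2 values of 7.09 and 7.41 in the knockout and 6.52 and 6.49 in the control. Meis2 and Meis3 were above background on 1 and 0 arrays.

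Genes that act upstream of Hox transcription showed no common direction. Among 18 activators, which include the Mll methyltransferase complex, Dot1l and the Cdx factors, 13 were tested and 0 passed the adjusted threshold. Ash2l was above background by its detection p on the control arrays alone, although its intensity exceeded all negative control probes on every array. Its normalized log2 values were higher in the knockout, at 8.06 and 8.02 against 7.49 and 7.36 (log2 change 0.62 ± 0.20, SE). Of the other 12 genes 7 were higher and 5 lower, with a median log2 change of 0.03. Kmt2a, which encodes Mll, differed by 0.03 ± 0.21 and Men1, its cofactor menin, by −0.00 ± 0.19 (SE). The largest differences were in the complex subunits Wdr5 (−0.78 ± 0.25) and Dpy30 (0.70 ± 0.44) and in the histone methyltransferase gene Dot1l (0.62 ± 0.28). Cdx1, Cdx2 and Cdx4 were above background on no array. Among 17 Polycomb genes and opposing demethylases, 13 were tested, 8 higher and 5 lower, with a median of 0.08 and 0 past the threshold. Cbx7, a chromobox subunit tied to stem cell self-renewal, was at −1.24 ± 0.39 and Suz12, a core subunit of the methylating complex, at 0.68 ± 0.24, while Eed differed by 0.45 ± 0.39.

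Genes reported as targets of Hoxa9, Hoxa10 or Meis1 were tested for 11 of a list of 18, and 0 passed the adjusted threshold in limma. Of the 10 above background in both genotypes, 7 were lower (53.6% of all genes) and 3 higher, with a median log2 change of −0.18. At an unadjusted p under 0.05, 2 of these were lower (8.77% of all genes) and 0 higher. Pf4, the platelet chemokine whose promoter Meis1 binds in megakaryocytic cells, had intensities of 128.3 and 146.4 in the knockout, against 979.1 and 564.9 in the control, a log2 change of −2.81 ± 0.28 (SE; limma, adjusted p = 0.114). Kit differed by −0.86 ± 0.21 (SE; limma, adjusted p = 0.237). Dusp4, a MAP kinase phosphatase gene, was above background on the control arrays alone. The bound described under the processing put it 1.51-fold lower in the knockout. Sox4 was at −0.62 ± 0.50, Lmo2 at −0.44 ± 0.21, Myb at 0.24 ± 0.21 and Bcl2 at 0.01 ± 0.20, and none of these passed the test.

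Marker lists of other cells in the sorted fraction differed beside Meis1 and Hoxa5, and no gene in them passed the adjusted threshold. The stem cell list, which does not hold a member, had 11 of 12 tested genes lower (53.6% of all genes), 9 without overlap (28.1% of all genes), and a median log2 change of −0.75. Its summed normalized intensity was 4971 to 5430 on the knockout arrays and 9305 to 10811 on the control arrays. Procr was above background on no array. Ndn, a growth suppressor gene of quiescent stem cells, was at −1.94 ± 0.22 and Txnip at −1.35 ± 0.22. In the megakaryocyte list Ppbp and Tubb1 were above background on the control arrays alone. Of the other 9 tested genes 8 were lower (53.6% of all genes), with a median of −1.25. Selp ran against them at 1.52 ± 0.68, with log2 values of 10.30 and 9.87 in the knockout and 7.47 and 9.65 in the control. The list had a sum of 1827 to 2302 in the knockout against 3024 to 3851 in the control. Gp6 and Clec1b were above background on no array, and Gp5, a platelet glycoprotein gene, was at −1.54 ± 0.41. The granulocyte-monocyte progenitor list had 8 of 11 tested genes higher, all 8 without overlap (22.0% of all genes), and a median of 1.07. Its sum was 16093 to 22513 in the knockout against 9108 to 10063 in the control. The largest changes were those of Ms4a3 (2.76 ± 0.42), Hp (2.50 ± 0.24) and Fcgr3 (1.65 ± 0.37). Mature neutrophil genes were high on knockout replicate 1 (sum 16755) and not on knockout replicate 3 (1199), against 1647 and 4648 on the control arrays. The part of these cell populations in the differences of Meis1 and Hoxa5 was not tested.

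Genes whose pattern over the 4 arrays was most like that of a member were found as the smallest root mean square difference between log2 values centred on each gene's own mean. For Meis1 these were Tmie, Pde1b and Dusp2, at 0.055, 0.075 and 0.077, where the median gene was at 0.766. All 3 were lower in the knockout by similar amounts, with log2 changes of −1.41, −1.20 and −1.41. For Hoxa9 they were Ino80e, Nfkbia and the unmatched name E530018O14RIK, at 0.025, 0.031 and 0.032, where the median gene was at 0.383. With 4 arrays such likeness is a description and says nothing of shared function.

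**Figure D5:**
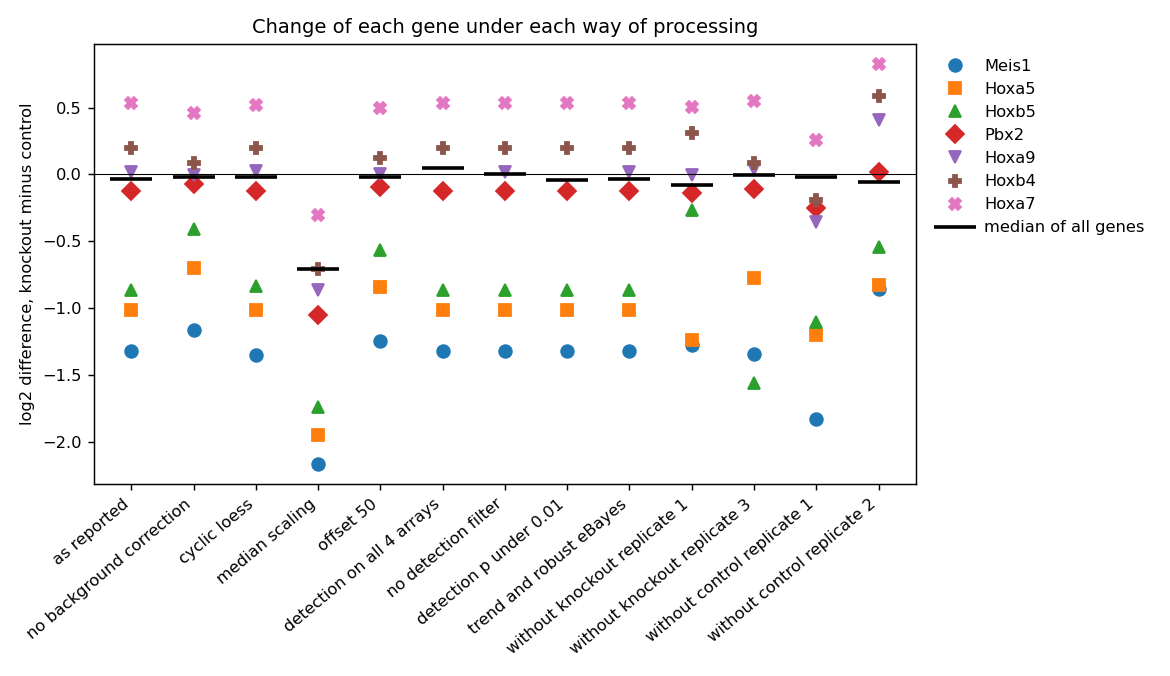
Log2 difference, knockout minus control, of the 7 tested genes under each way of processing, with black bars at the median of all genes tested; a gene missing from a setting failed its detection filter. Meis1 lies between −2.16 and −0.86 over the settings, and under median scaling all points shift with the median of all genes, which is −0.70.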

How the data were processed

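The deposited table held intensity values per gene name without background subtraction or normalization, per the file headers. Per the file headers, the deposited bead standard errors are a signal on the scale of the intensities, and the deposited bead number is a score. The file headers name a detection p-value, and how it was computed is not given in the sources used here. It is not a plain rank among the negative control probes, since Hoxa9 exceeded all 936 of them on control replicate 2 at a detection p of 0.0659. A gene not above background can therefore still be brighter than the negative controls. The genome build and the scanner software are not given in the sources used here. A second deposited table carries probe identifiers without genes and was not used here. 1 gene row held text and was left out.

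Signals were corrected by normexp with 936 negative control probes and an offset of 16, quantile-normalized and taken to log2 (neqc, limma 3.58.1, R 4.3.3). Names were updated through RefSeq, GRCm38.p6 (16223 current symbols, 5684 older symbols, 868 identifiers, 8079 kept as written). Genes with a detection p under 0.05 on at least 2 of 4 arrays were kept, with the brightest row per gene, which left 11538. Knockout minus control was tested two-sided with lmFit and eBayes (limma, no covariate, 3.72 prior degrees of freedom) and adjusted by Benjamini-Hochberg at 0.05. With 2 pools per genotype, the number of arrays limits precision. On simulated data with 2 arrays per genotype, 35% of genes changed by 1.5 and 87% of those changed by 3 on the log2 scale were called. There 3 unchanged genes were called too. The simulated noise was independent between genes and held no differences in brightness between arrays, so these shares need not hold for the real arrays.

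Members and lists were chosen with earlier results of these data known. The text names all 9 members, other Hox genes above background on at least 2 arrays, from each list the 3 tested genes with the largest change where fewer than 3 passed, and the 3 genes most like Meis1 and Hoxa9. Pbx3 failed the filter and got no such search. Some genes that this rule names are not reported here. Further genes named from the lists (Kmt2a, Men1, Ash2l, Sox4, Lmo2, Myb, Bcl2, Tgif2, Ppbp, Tubb1, Selp, Ebf1, Cd3e) were chosen after their values were seen. For a gene above background in a single genotype, the bound sets its mean there against, per array of the other genotype, the higher of its own value and the lowest value above background.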

Additional observations from a re-analysis of the deposited data

How the results depend on the processing

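No paired analysis was possible because the genotypes share only replicate number 1. The alternatives were quantile normalization without background correction, cyclic loess, median scaling, an offset of 50, 3 other detection filters, trend and robust settings of eBayes, and each array left out. The genes past the adjusted threshold numbered 0 with the main processing (1769 at an unadjusted p under 0.05), 3 with cyclic loess, 15 with eBayes set to trend and robust, 17 with detection on all 4 arrays and 940 with median scaling. Median scaling kept the dimness of the knockout arrays and moved the median of all genes to −0.70. Under it 3 members passed (Meis1 at −2.16, adjusted p = 0.0296, with Hoxa5 and Hoxb5), and 6 of 7 had both knockout values below both control values, as did 68.5% of all genes. Hoxa7 (−0.30), Hoxa9 (−0.86), Hoxb4 (−0.71) and Hoxb2 (−0.68) turned negative there, where only Hoxa7 and Hoxb2 lay above the median of all genes. Hoxa9 was at −0.0045 without background correction.

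With 1 array left out, no member passed. Meis1 ranged from −1.83 to −0.86, Hoxa9 from −0.36 to 0.41, Hoxb4 from −0.19 to 0.59 and Pbx2 from −0.25 to 0.0199. The number of members with both knockout values lower ranged from 2 to 6, with 6 without control replicate 1, where 39.1% of all genes showed that pattern. Meis1, Hoxa5 and Hoxb5 stayed below 0 under every alternative. The adjusted p of Meis1 lay between 0.0296 and 0.585 over the alternatives, and that of Hoxa5 between 0.037 and 0.586. Hoxb5 was at −0.40 without background correction.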

Other observations

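Lists of further cell types were read in the same fit, and none of their genes passed the adjusted threshold. Markers of multipotent and lymphoid-primed progenitors showed no direction, with 4 higher and 4 lower of 8 tested and a median log2 change of 0.05. Dntt was at 0.73 ± 0.53, Il7r at −0.32 ± 0.33 and Cd48 at 0.32 ± 0.36 (SE). Of 9 erythroid genes 5 were higher and 4 lower, with a median of 0.01 that was 0.90 without knockout replicate 1 and −0.54 without knockout replicate 3. Car1, an erythroid carbonic anhydrase gene, was at −2.36 ± 0.25, the beta globin gene Hbb-b1 at 0.80 ± 0.46 and the transferrin receptor gene Tfrc at 0.77 ± 0.21.

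Of 5 tested B cell genes Ebf1 was above background on the control arrays alone. The other 4 were lower (53.6% of all genes), 2 of them without overlap (28.1% of all genes), led by the surrogate light chain genes Vpreb1 (−1.54 ± 0.66) and Igll1 (−1.33 ± 0.85). Of 6 T and NK cell genes Cd3e was above background on the control arrays alone, and of the other 5 genes 4 were higher (median 0.14), with Nkg7 at 1.24 ± 0.28, Cd8b1 at −0.63 ± 0.30 and Cd3d at 0.25 ± 0.22. The 4 tested macrophage genes had a median of 0.16, with C1qa at 0.50 ± 0.41, Cd68 at 0.33 ± 0.19 and Csf1r at −0.02 ± 0.44. Of 4 mast cell and basophil genes 3 were lower (53.6% of all genes), with a median of −0.53. Prss34, a basophil protease gene, was at −2.47 ± 0.44, Cpa3 at −0.75 ± 0.21 and Fcer1a at −0.32 ± 0.37. Of 12 mature neutrophil genes 11 were higher, but the direction rested on 1 array, since the median of 0.57 was −0.999 without knockout replicate 1 and 2.73 without knockout replicate 3. The values included Lcn2 at 1.61 ± 0.99, Chil1 at 1.13 ± 1.00 and Ltf at 1.11 ± 1.5.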
